A study of Mus musculus with 22 samples.

Results

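The 7 insulin-like growth factor (IGF) binding protein genes of the mouse, Igfbp1 to Igfbp7, were followed through livers and embryos lacking Rlf, a zinc finger protein. They were listed by name, and the list was chosen on measured values, because Igfbp1 was known to differ in RNA-seq between the genotypes. All 7 were among the 37991 genes counted in RNA-seq, and all 7 were among the 20675 protein-coding genes with a window of CpGs at the transcription start site (TSS). RNA-seq of polyadenylated RNA compared E14.5 livers of 3 wild-type (Rlf+/+) and 3 homozygous mutant (RlfMommeD28/MommeD28) fetuses. Whole-genome bisulphite sequencing covered embryos at E10.5 and livers at both E14.5 and E18.5, with 2 samples per genotype at each stage. The embryos are labelled male and the E18.5 livers female, and each genotype had 1 male and 1 female among the E14.5 livers, which were littermates. The MommeD28 allele came from a chemical mutagenesis screen and is described by the study as a null allele. Both genotypes were inbred Line3 FVB/NJ mice homozygous for a multi-copy GFP reporter transgene under a human alpha-globin promoter with its HS-40 enhancer element, which the controls therefore carried too.

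IGF binding proteins are secreted and hold IGF1 and IGF2 in the circulation and between cells, which both prolongs the life of the growth factors and keeps them from the IGF1 receptor. Igfbp1 is made mainly by hepatocytes, is held down by insulin through FOXO factors, and is raised by fasting, hypoxia, amino acid shortage and glucocorticoids. Igfbp3 and Igfbp5 can join the acid-labile subunit in a larger circulating complex, Igfbp2 and Igfbp4 act as smaller carriers, Igfbp6 prefers IGF2, and Igfbp7 binds IGFs only weakly.

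The genes lie in 2 tail-to-tail pairs and 3 single loci, all given on mm9. Igfbp1 (ENSMUSG00000020429) is at chr11:7097785-7102549 on the plus strand, and Igfbp3 (ENSMUSG00000020427) is at chr11:7106089-7113926 on the minus strand, with 3539 bp between their 3′ ends. Igfbp2 (ENSMUSG00000039323) at chr1:72871077-72899048 on the plus strand faces Igfbp5 (ENSMUSG00000026185) at chr1:72904506-72921458 on the minus strand, 5457 bp apart. Igfbp4 (ENSMUSG00000017493) is at chr11:98902558-98913969 on the plus strand, Igfbp6 (ENSMUSG00000023046) at chr15:101974793-101979942 on the plus strand, and Igfbp7 (ENSMUSG00000036256) at chr5:77778265-77837070 on the minus strand.

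Promoters of 3 members are shown. Those of Igfbp3 and Igfbp6 held the most and the fewest CpGs among the members, and Igfbp1 is the neighbour of Igfbp3. The part of CpG content in the methylation values was not tested. Each runs 5′ to 3′ on the strand of the gene from 250 bp before the TSS to 50 bp after its first base, with CpGs in capitals. They are chr11:7097535-7097834 (plus) for Igfbp1, chr11:7113877-7114176 (minus) for Igfbp3 and chr15:101974543-101974842 (plus) for Igfbp6, read from the mm9 reference.
Igfbp1: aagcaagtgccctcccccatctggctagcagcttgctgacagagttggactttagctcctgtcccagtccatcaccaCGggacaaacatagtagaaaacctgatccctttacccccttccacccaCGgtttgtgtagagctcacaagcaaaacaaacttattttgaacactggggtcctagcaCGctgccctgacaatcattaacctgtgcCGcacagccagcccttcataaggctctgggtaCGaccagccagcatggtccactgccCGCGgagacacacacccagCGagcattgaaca
Igfbp3: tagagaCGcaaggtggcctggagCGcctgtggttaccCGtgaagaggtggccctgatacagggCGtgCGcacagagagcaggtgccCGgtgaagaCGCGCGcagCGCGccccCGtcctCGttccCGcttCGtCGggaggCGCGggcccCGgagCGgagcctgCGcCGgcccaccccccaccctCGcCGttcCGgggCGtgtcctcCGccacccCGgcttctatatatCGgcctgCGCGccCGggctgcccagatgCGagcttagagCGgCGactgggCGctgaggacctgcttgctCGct
Igfbp6: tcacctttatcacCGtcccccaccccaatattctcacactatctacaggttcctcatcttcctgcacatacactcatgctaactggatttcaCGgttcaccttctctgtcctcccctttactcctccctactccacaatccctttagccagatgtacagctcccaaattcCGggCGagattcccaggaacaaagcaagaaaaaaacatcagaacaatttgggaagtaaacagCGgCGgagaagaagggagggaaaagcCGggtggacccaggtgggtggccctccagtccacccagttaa

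The Igfbp1 promoter held 8 CpGs, that of Igfbp3 held 37 and that of Igfbp6 held 7, against a median of 11 over 22350 protein-coding promoters of the same length. Those of Igfbp2, Igfbp4, Igfbp5 and Igfbp7 held 20, 27, 11 and 33. In the reference sequence the TSS of Igfbp1 lay in a short CpG island of 354 bp with 13 CpGs. By the same definition the islands at the TSS of Igfbp2, Igfbp3, Igfbp4, Igfbp5 and Igfbp7 were 1012 to 1871 bp long. The TSS of Igfbp6 lay in none, but between islands of 361 bp with 9 CpGs and 537 bp with 33 CpGs, both within 1 kb. The Igfbp1 promoter held the letters CAAAACA, the core of the insulin response element, once on the strand of the gene, from 103 to 97 bp before the TSS. It is shown in capitals with the bases around it at chr11:7097670-7097700.
Igfbp1 element: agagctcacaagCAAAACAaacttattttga
None of the other 6 promoters held these letters on either strand, and 6.01% of all promoters did. The hypoxia response element ACGTG was in the promoters of Igfbp2 and Igfbp7 and in 20.7% of all. The TATA box letters TATAAA were in that of Igfbp4 and in 13.4% of all. Neither of these sets of letters was in that of Igfbp1. Other forms of these elements were not searched, so their absence is not shown. These matches describe the sequence and are not sites shown to be used.

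RNA-seq libraries held 12928313 to 14621004 counts, and a CpG of the reference was read on average 15.0 to 17.02 times in the embryo bisulphite libraries, 29.5 to 33.3 times at E14.5 and 16.2 to 16.8 times at E18.5. Rlf mRNA was measured at 68.9 to 72.3 CPM (counts scaled to a library of 1e+06) in wild-type and 67.6 to 79.8 CPM in mutant livers, with a log2 fold change of 0.08 (SE 0.07). Since the allele comes from mutagenesis, this level does not check the labels. Replicate 3 of each genotype is labelled female and the others male, and Xist and Ddx3y counts matched these labels in all 6 livers. The livers expressed Alb at 23322 to 34945 CPM, Afp, and the erythroid gene Hbb-b1, which marks a fetal liver full of hepatoblasts and erythroid cells.

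Igfbp1 was the member that separated the genotypes. Its RNA-seq counts were 1193, 2292 and 1919 for wild type 1 to 3 and 5321, 9136 and 2925 for the mutants. Scaled to library size these were 91.0, 151 and 135 CPM in wild type and 413, 659 and 205 CPM in the mutants. All 3 mutant livers lay above all 3 wild-type livers. Igfbp1 was the one member without overlap between the genotypes, where 20.3% of the genes tested had none in either direction. The female mutant liver was closest to the wild-type livers. Mean levels were 126 ± 31.2 CPM (SD, n = 3) and 426 ± 227 CPM (SD, n = 3), a ratio of means of 3.39, and the fitted log2 fold change was 1.76 (SE 0.32). Of the 197 genes called at an adjusted p below 0.05 among 14183 tested (1.39%, and 0.698% higher in mutants), 2 rose by more. The member list was chosen on this contrast, so its values for the members are a description and lend it no support. The adjusted p was 0.0185 for Igfbp1, the one member past the threshold, and 0.649 for Igfbp5, the next.

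Between the 2 male livers of each genotype the log2 ratio of mean Igfbp1 CPM was 2.14, and between the single female livers it was 0.61. Same-numbered livers deviated together from their group means, where number 3 is also the female label. By number the log2 ratios were 2.18, 2.12 and 0.61. Igfbp1 supplied 15.9, 21.8 and 20.2% of all counts on the 7 genes in wild type and 45.03, 54.1 and 26.9% in the mutants. The call on Igfbp1 did not hold without wild-type replicate 1, wild-type replicate 3 or mutant replicate 1, and the log2 fold change ran from 1.30 without mutant replicate 2 to 2.09 without mutant replicate 3.

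**Figure D1:**
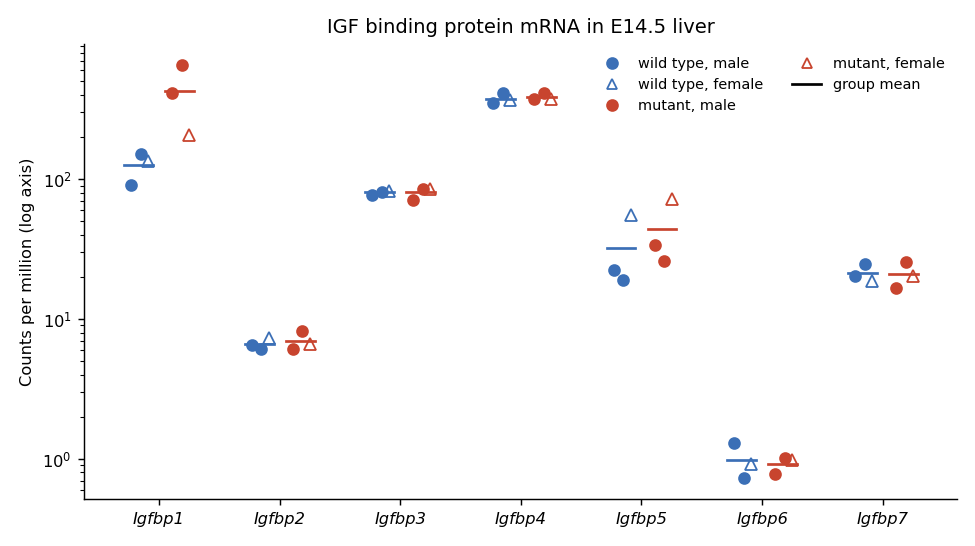
CPM on a log axis for each member in each E14.5 liver. Circles are male and triangles female livers, blue is wild type, red is mutant and bars are group means. The 3 mutant livers lie above the 3 wild-type livers for Igfbp1, and the female livers stand above the male ones for Igfbp5.

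Markers of hepatoblasts, the cells known to make Igfbp1 in liver, were higher in the mutants in sum, which rests on albumin and Afp. The 13 hepatoblast markers, among them albumin and Afp, summed to 56957 to 67636 CPM in wild-type and 69525 to 80641 CPM in mutant livers, without overlap. Without albumin and Afp, the other 11 summed to 6492 to 7608 CPM and 7032 to 7834 CPM, and the groups overlapped. None was called by edgeR or DESeq2, 2 were higher at an unadjusted p below 0.05, and the median log2 fold change of the list was 0.06, against -0.0017 over all genes tested. Over all genes tested for each, edgeR called 1.39%, DESeq2 1.76% and the fit with replicate number as a block 3.24%, and 14.6% had an unadjusted p below 0.05 in edgeR, which are the shares to set beside every list. The erythroid markers summed to 28881 to 53572 CPM in wild type and 36082 to 39083 CPM in mutants, most of it from Hbb-b1 and Hba-a1. Without these globins the sums were 9286 to 12793 and 9418 to 10992 CPM. The median log2 fold change of the 10 erythroid markers was -0.15, and 1 of them had a value above 0. In whole livers, more cells of one type and more RNA per cell cannot be told apart, and the part of hepatoblast content in the Igfbp1 values was not tested.

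Igfbp3, the tail-to-tail neighbour of Igfbp1 and the main serum carrier of IGFs, did not separate the genotypes. It was measured at 77.1, 81.3 and 82.6 CPM in wild type and 71.2, 85.3 and 84.9 CPM in mutants, a log2 fold change of 0.00 (SE 0.07). The groups overlapped. Adcy1, an adenylate cyclase and the one other protein-coding gene within 500 kb of the pair, ends 19.3 kb before Igfbp1. Its level was 2.21, 3.11 and 2.53 CPM in wild type and 4.73, 4.55 and 3.79 CPM in mutants. The groups did not overlap, and its log2 fold change of 0.72 (SE 0.19) missed the threshold (adjusted p = 0.0969, edgeR). It rests on 29 to 63 counts a liver.

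Igfbp4, an inhibitory binding protein cleaved by the protease PAPP-A, was the most abundant member in wild-type liver. Its level was 353, 411 and 368 CPM in wild type and 375, 413 and 374 CPM in mutants, with overlapping groups and a log2 fold change of 0.04 (SE 0.07). Igfbp2, the other smaller carrier, gave 6.49, 6.08 and 7.37 CPM in wild type and 6.13, 8.225 and 6.599 CPM in mutants, again overlapping. Igfbp6 was at the edge of detection, with 10 to 17 counts in each liver. Igfbp7, a weak IGF binder of vessels and stroma, gave 266, 372 and 268 counts in wild type and 214, 355 and 291 in mutants. Its 3′ end overlaps Polr2b on the other strand, and the counting did not use strand. For Igfbp2, Igfbp6 and Igfbp7 the log2 fold changes were 0.07 (SE 0.15), -0.06 (SE 0.32) and -0.02 (SE 0.15).

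Per kb of exon, the wild-type order was Igfbp4 at 160 ± 12.6 CPM per kb, Igfbp1 at 82.4 ± 20.5, Igfbp3 at 25.7 ± 0.910, Igfbp7 at 17.5 ± 2.47, Igfbp5 at 5.37 ± 3.34, Igfbp2 at 3.60 ± 0.356 and Igfbp6 at 0.880 ± 0.262 (SD, n = 3). Only the ranges of the neighbours Igfbp5 and Igfbp2 overlapped between wild-type livers. In the mutants Igfbp1 came to 279 ± 149 CPM per kb beside 164 ± 9.27 for Igfbp4, but in mutant replicate 3 Igfbp1 was the lower one, at 135 against 158 CPM per kb.

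Igfbp5 differed more between replicate numbers than between genotypes. Its counts were 295, 286 and 789 in wild type and 439, 361 and 1025 in mutants, or 22.5, 18.9 and 55.3 CPM against 34.1, 26.04 and 72.0 CPM. Both female livers lay above the 4 male livers, which held for 5.6% of the genes tested. In a fit with genotype and sex the log2 fold change of Igfbp5 between female and male livers was 1.34 (SE 0.11), given as a description only, since the contrast was chosen after these values were seen. Sex and replicate number cannot be told apart here. In the fit by genotype alone the log2 fold change of Igfbp5 was 0.45 (SE 0.39), and it ran from -0.10 without mutant replicate 3 to 1.095 without wild-type replicate 3, with no call. With sex as a covariate it was 0.48 and not called (adjusted p = 0.05025). With replicate number as a block it was 0.47 (SE 0.08, adjusted p = 0.00359), which adds Igfbp5 to Igfbp1 as a member called, where 3.24% of genes were called.

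Stromal cells are known to make Igfbp5, and mesenchymal markers were read beside it. The 12 markers summed to 1164, 1073 and 1329 CPM in wild-type livers 1 to 3 and 1324, 1143 and 1622 CPM in the mutants, so the highest sum of each genotype was in replicate 3. For 6 of the 12 both replicate 3 livers lay above the other 4, which held for 5.6% of the genes tested. By genotype, 11 of the 12 had a log2 fold change above 0, with a median of 0.20, and none was called. The part of stromal content in the Igfbp5 values was not tested.

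Among the ligands and receptors none of the 5 tested of 8 was called by edgeR or DESeq2, and 1, Igf2r, had an unadjusted p below 0.05. Igf2, the main fetal ligand, was at 4916, 5279 and 5159 CPM in wild type and 5038, 5293 and 5163 CPM in mutants. Igf2r, the receptor that clears IGF2, gave 283 to 324 CPM in wild type and 317 to 418 CPM in mutants, and Insr 70.9 to 77.0 and 75.0 to 97.5 CPM. The insulin genes Ins1 and Ins2 had at most 2 counts in any liver. Of 11 genes for the acid-labile subunit, binding protein proteases and their inhibitors, 7 were tested, 2 were higher at an unadjusted p below 0.05 (14.6% of all genes in either direction) and 1 was called by edgeR and by DESeq2 (1.39 and 1.76%). This was Adamts1, a secreted metalloprotease, at 34.9, 39.4 and 42.2 CPM in wild type and 50.9, 50.3 and 52.9 CPM in mutants, with a log2 fold change of 0.40 (SE 0.08, adjusted p = 0.0318). Plg, the plasminogen precursor, gave 960 to 976 CPM in wild type and 859 to 973 CPM in mutants, and Igfals, the acid-labile subunit itself, 9.96 to 13.96 and 9.06 to 10.7 CPM.

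Stimuli known to raise Igfbp1 were followed through lists of other genes of each response. These lists were chosen with earlier results of these data known. The part of each stimulus in the Igfbp1 values was not tested. None of the 7 tested genes that insulin represses was called by edgeR or DESeq2, and 0 had an unadjusted p below 0.05. The fitted value was above 0 for 6 of the 7, with a median log2 fold change of 0.13, against -0.0017 over all genes tested. Of 11 tested genes of signalling below the receptors, 0 were called by edgeR, 2 had an unadjusted p below 0.05, and DESeq2 called 1, Grb10. This adaptor, which restrains the insulin receptor, gave 868 to 999 CPM in wild type and 1073 to 1124 CPM in mutants, with a log2 fold change of 0.23 (SE 0.07, adjusted p = 0.140). Irs2, an insulin receptor substrate, gave 34.9 to 46.8 and 37.5 to 50.7 CPM.

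Of the 14 genes induced by hypoxia, all tested, edgeR called 2 higher and none lower, where 1.39% of all genes were called in either direction. P4ha1, a collagen prolyl hydroxylase, gave 44.9, 48.9 and 46.4 CPM in wild type and 64.5, 68.0 and 54.8 CPM in mutants, and Egln3, an oxygen sensor, 5.80, 8.39 and 6.59 against 10.6, 11.6 and 11.1 CPM. Both had groups that did not overlap. Their log2 fold changes were 0.42 (SE 0.08, adjusted p = 0.0354) and 0.68 (SE 0.14, adjusted p = 0.0434). DESeq2 called 4, with Hk2 and Vegfa added, where it called 1.76% of all genes, and 10 were higher and 0 lower at an unadjusted p below 0.05, where 14.6% of all genes passed in either direction. The median over the list was 0.38, against -0.0017 over all genes tested, and the fitted value was above 0 for all 14. The list was chosen with earlier results known, and the part of hypoxia in the Igfbp1 values was not tested. With replicate number as a block 6 were called, with Bnip3, Hk2, Ldha and Vegfa added, where 3.24% of genes were called. Ldha, lactate dehydrogenase, gave 726 to 855 CPM in wild type and 883 to 1132 CPM in mutants, and Slc2a1, a glucose transporter, 587 to 743 and 666 to 694 CPM.

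A list of 14 genes held Atf4, for the amino acid stress factor ATF4, and targets of that factor. Of these 13 were tested and edgeR called 1, which was higher, where 1.39% of all genes were called. The fitted value was above 0 for 12 of the 13 tested, with a median log2 fold change of 0.21. Atf4 itself gave 320 to 350 CPM in wild type and 340 to 359 CPM in mutants. Nupr1, a small stress-induced nuclear protein, had a log2 fold change of 1.51 (SE 0.31, adjusted p = 0.0400), but at 0.772 to 1.37 CPM in wild type and 1.94 to 3.75 CPM in mutants. DESeq2 and the blocked fit each added Trib3 for 2 in all, where they called 1.76 and 3.24% of all genes, and 4 were higher and 0 lower at an unadjusted p below 0.05, where 14.6% of all genes passed. Asns and Psat1, enzymes of amino acid synthesis, gave 350 to 404 and 367 to 400 CPM, and 414 to 487 and 468 to 486 CPM. None of 7 tested glucocorticoid targets was called by edgeR or DESeq2. The fitted value was above 0 for 5 of the 7, with a median log2 fold change of 0.11. At an unadjusted p below 0.05, 2 were higher and 1 lower. Mt2, a metallothionein and 1 of the higher ones, gave 964 to 1111 CPM in wild type and 1089 to 1335 CPM in mutants. Dusp1, a phosphatase of MAP kinases, was the lower one, at 48.8 to 62.4 CPM in wild type and 36.5 to 49.3 CPM in mutants. None of 5 tested genes for related proteins with an IGFBP-like domain was called by either tool, with 1 at an unadjusted p below 0.05.

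**Figure D2:**
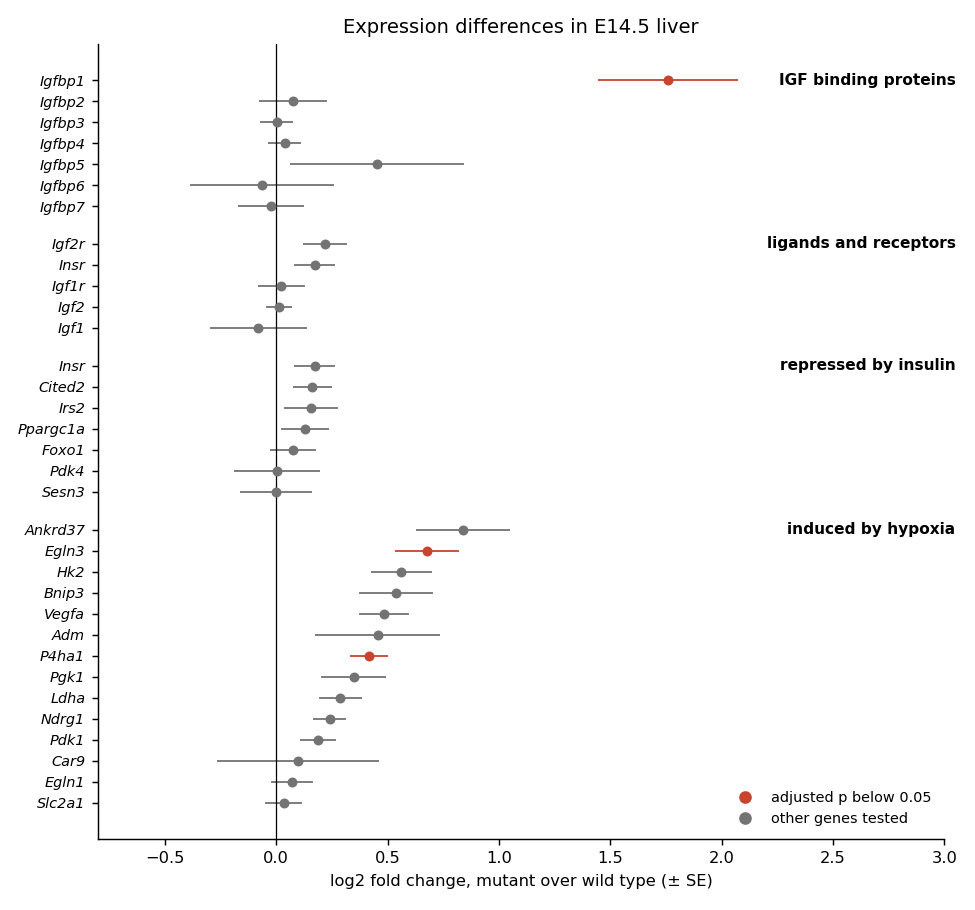
Log2 fold change of mutant over wild type in E14.5 liver with its standard error for the members and for 3 of the gene lists. Red marks an adjusted p below 0.05. Igfbp1 at 1.76 stands apart from the other members. Values lie above 0 for all 14 hypoxia genes, 6 of 7 genes repressed by insulin and 4 of 5 ligands and receptors. The lists were chosen with earlier results of these data known.

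The genes whose CPM followed Igfbp1 most closely over the 6 livers were Hip1r, Gpi1, Klhl24, Gpr89 and Lpin1, with Pearson r of 0.997, 0.992, 0.991, 0.991 and 0.991 in log2 CPM. These 5 are the highest of all tested genes with a mean of at least 1 CPM, and the 6 livers share their genotype contrast. Gpi1, the glycolytic enzyme glucose phosphate isomerase, was at 131, 156 and 143 CPM in wild type and 190, 211 and 164 CPM in mutants. Lpin1, a phosphatidate phosphatase, gave 11.4, 14.6 and 12.3 against 21.4, 24.8 and 15.9 CPM. None of the 5 was called by edgeR, with adjusted p from 0.0542 to 0.429.

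Of the markers of other cell types edgeR called 2, where 1.39% of all genes were called and 14.6% had an unadjusted p below 0.05. Cd5l, a macrophage product, was lower in the mutants (88.5 to 130 against 37.6 to 53.6 CPM, log2 fold change -1.19, SE 0.14, adjusted p = 0.00187) and was the one macrophage marker of 9 called by edgeR or DESeq2, where 5 had an unadjusted p below 0.05, 2 of them higher and 3 lower. Pf4, platelet factor 4, was the one megakaryocyte marker of 6 that edgeR called and was higher (146 to 155 against 186 to 213 CPM, log2 fold change 0.40, SE 0.07, adjusted p = 0.0143). DESeq2 called Itga2b, an integrin subunit of platelets, as well, and all 6 were higher at an unadjusted p below 0.05, summing to 519 to 551 CPM in wild type and 631 to 689 CPM in mutants. No erythroid, mesenchymal, endothelial or mesothelial marker was called by edgeR or DESeq2, with 1 of 10, 5 of 12, 6 of 10 and 1 of 8 at an unadjusted p below 0.05. The erythroid one was lower, the mesenchymal 5 and the mesothelial one were higher, and of the endothelial ones 5 were higher and 1 lower. With replicate number as a block, where 3.24% of genes were called, Marco joined Cd5l, and Itga2b and Gp1ba joined Pf4.

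Methylation was then read over 3 windows of each gene, from CpGs that every one of the 12 libraries covered by 6 reads or more. The windows are the TSS with 1 kb on either side, the flanks from 1 to 3 kb on either side, which stand for the shores, and the gene body beyond the first 1 kb. Each member had 19 to 536 such CpGs in a window and 273 to 25641 reads a library. The 95% Wilson interval of a single library's value was 0.259 to 10 points wide, which covers counting error only. Differences are in percentage points.

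At the TSS, Igfbp1 was methylated and most other members were not. Over 37 CpGs it was at 72.7 and 73.7% in wild-type and 77.4 and 78.7% in mutant E10.5 embryos, at 58.3 and 59.8% against 60.9 and 61.9% in E14.5 livers, and at 54.9 and 56.6% against 67.9 and 54.8% in E18.5 livers. The genotypes did not overlap at E10.5 or E14.5 and overlapped at E18.5, where mutant replicate 1 stood above the other 3 livers. Igfbp2, Igfbp3, Igfbp4 and Igfbp5 were between 0 and 2.71% in every library, Igfbp7 between 6.09 and 9.75%, and Igfbp6 between 21.1 and 30.5%.

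**Figure D3:**
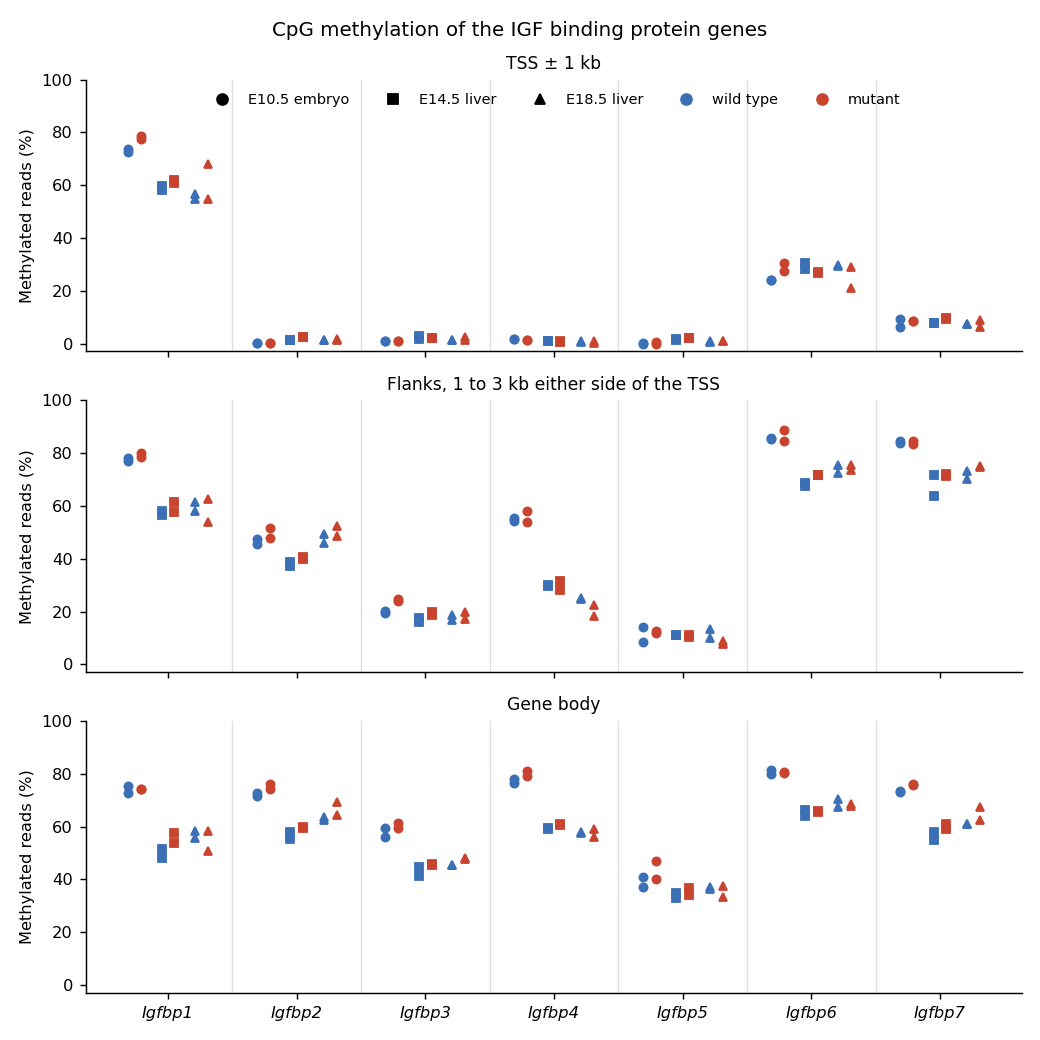
Percent of methylated reads of each member in the 3 windows. Each point is a library, with shape for tissue and colour for genotype. Igfbp1 is the one member above 50% at the TSS, and every gene body is lower on average in the livers than in the embryo.

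Between tissues, the Igfbp1 TSS window was lower in E14.5 liver than in the E10.5 embryo, at 60.2 ± 1.54% against 75.6 ± 2.88% (SD, n = 4), a difference of -15.4 points (adjusted p = 1.6e-05, edgeR). Igfbp4 was lower too, by less than 1 point, and with at least 10 reads per CpG its difference was 0.04 points and was not called. Igfbp2, Igfbp3 and Igfbp5 were higher, by 1.28 to 1.62 points. Without E10.5 wild-type replicate 2 Igfbp7 was called too (1.38 points), and in wild-type libraries alone so was Igfbp6 (5.23 points). At the TSS 5 of 7 members were called, where 67.7% of all genes were and 47.1% were called lower. In the flanks 6 were called lower, from 4.19 points in Igfbp3 to 25.7 in Igfbp4, where 90.6% of all genes were called and 84.8% were lower. The Igfbp3 call did not hold in wild-type libraries alone (-3.13 points, adjusted p = 0.0693). Igfbp5 was the one member that did not pass there (difference -0.89, adjusted p = 0.508). All 7 gene bodies were lower, Igfbp1 the most at -21.5 points and Igfbp5 the least at -6.71, where 95.8% of all genes were called and 92.6% were lower. The direction in the flanks and bodies was that of most genes. Tissue, age and, in part, sex change together in this contrast.

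From E14.5 to E18.5 liver the changes were fewer. Age, read depth and, in part, sex change together in this contrast too. The study also describes a shift in cell make-up, with erythroblasts the larger share at E14.5 and hepatoblasts at E18.5. Their parts were not tested. Igfbp1 was not called in any window, with differences of -1.65, 0.58 and 3.102 points at the TSS, in the flanks and in the body. The body was called in wild-type libraries alone (7.12 points, adjusted p = 0.00964), without E14.5 wild-type replicate 1 (3.92 points) and without E18.5 mutant replicate 2 (4.99 points), and the TSS window without E18.5 mutant replicate 1 (-4.93 points). Igfbp2 rose by 9.996 points in the flanks and 6.93 in the body, and Igfbp7 by 4.84 in the body. Igfbp6 rose by 4.39 in the flanks, a call that did not hold without E18.5 wild-type replicate 2 or without E18.5 mutant replicate 1. Igfbp4 fell by 7.15 points in the flanks, where 2.4% of all genes were called lower, but was not called in wild-type libraries alone (-4.98 points, adjusted p = 0.0810). At the TSS 0 of 7 members were called by edgeR (2 at an unadjusted p below 0.05), where 21.6% of all genes were. The Igfbp3 TSS was called lower without E14.5 wild-type replicate 2 or without E18.5 mutant replicate 1. The bodies of Igfbp3 and Igfbp6 were called without E14.5 wild-type replicate 2, that of Igfbp5 without E18.5 mutant replicate 2, and that of Igfbp4 (-3.15 points) without E18.5 mutant replicate 1. The Igfbp7 flank was called without E14.5 wild-type replicate 2 (5.66 points) and with at least 10 reads per CpG (5.80 points). In these windows 52.6% of all flanks and 73.6% of all bodies were called. With each library left out in turn, 8.29 to 24.4% of all TSS windows, 32.5 to 57% of flanks and 61.7 to 80.7% of bodies were.

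Single CpGs resolved the Igfbp1 start. After the TSS the embryo was the most methylated tissue, over 24 CpGs from 100 to 850 bp after the TSS. The level was 88.1 ± 2.02% in E10.5 embryos, 63.5 ± 3.97% in E14.5 livers and 61.9 ± 6.28% in E18.5 livers (SD, n = 4, both genotypes). In a stretch just before the TSS the embryo was the least methylated. Over 5 CpGs from 350 to 100 bp upstream, which include that 125 bp before the TSS beside the CAAAACA letters, the embryos were at 9.87, 15.4, 21.4 and 25.7%. The E14.5 livers were at 37.7, 41.7, 38.1 and 45.5%, and the E18.5 livers at 33.6, 35.4, 47.2 and 36.6%, each given as wild type 1 and 2 and mutant 1 and 2. Over these 5 CpGs together no embryo reached the lowest liver. At the CpG 125 bp before the TSS alone the tissues overlapped, at 19.6, 28.0, 16.1 and 37.2% in embryos and 28.95 to 47.2% in livers. The CpG 67 bp before the TSS, on the other side of the letters, was at 46.1, 48.7 and 47.0% in pooled E10.5, E14.5 and E18.5 libraries. Further upstream, over 16 CpGs from 1 to 3 kb before the TSS, the embryo was again the highest, at 90.3 to 92.2% against 71.9 to 75.2% in E14.5 and 64.8 to 73.5% in E18.5 livers. The stretches within 1 kb were set after the values were seen and carry no test, and the upstream one rests on 98 to 218 reads a library.

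**Figure D4:**
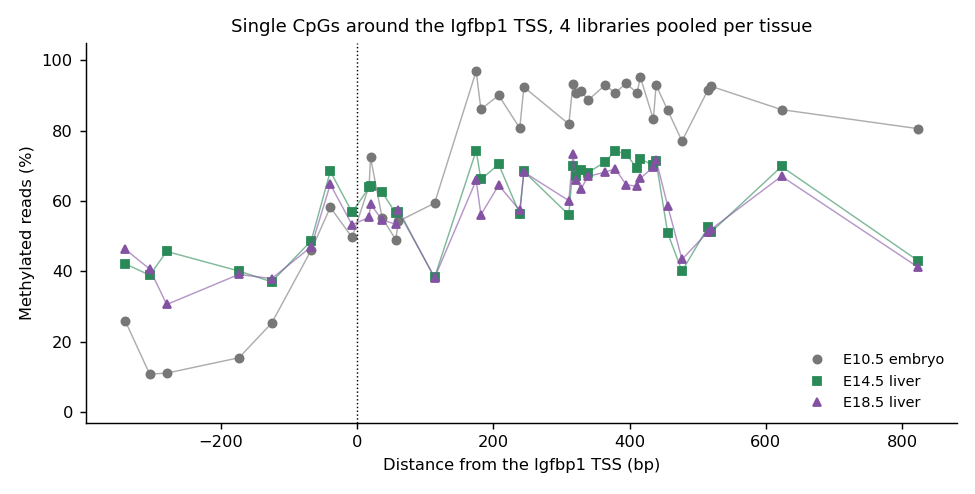
Percent of methylated reads at each CpG around the Igfbp1 TSS, with the 4 libraries of a tissue pooled. The embryo lies below both liver stages in the 5 CpGs from 350 to 100 bp before the TSS and above them from 100 bp after it.

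By genotype, no member passed at the TSS in any tissue (edgeR, adjusted p 0.113 to 0.976, with 2, 2 and 1 of 7 at an unadjusted p below 0.05 in E10.5, E14.5 and E18.5). All genes were called at 1.66, 0.711 and 0.818%. The Igfbp1 differences of mutant minus wild type were 4.84, 2.37 and 5.63 points with adjusted p of 0.194, 0.580 and 0.750. Without E18.5 mutant replicate 2 the last was 12.2 points and was called, where 0.929% of all genes were. Within the Igfbp1 window the E14.5 difference was not the same throughout, though these stretches carry no test. Over 17 CpGs from 300 bp before to 300 bp after the TSS the mutants lay below, at 54.1 and 57.99% against 60.4 and 58.6%, and over the 18 CpGs beyond that, up to 1000 bp after it, they lay above, at 68.8 and 66.8% against 58.3 and 61.6%. At E10.5 and E18.5 both mutants lay above both wild types in the first of these stretches. Igfbp2 at E14.5 was at 1.38 and 1.19% in wild type and 2.56 and 2.36% in mutants (adjusted p = 0.113). In 1 fit of all 12 libraries it was called (adjusted p = 0.0265), but not with an estimated dispersion in that fit. In a fit with sex, which at E14.5 is the same as replicate number, it was called too (adjusted p = 0.00388), where that fit called 6.83% of all genes. At E10.5 both mutants lay above both wild types in 3 members (Igfbp1, Igfbp3 and Igfbp6) and below them in 1 (Igfbp4), where 33.9 and 7.82% of all genes did so. At E14.5 these were 4 (Igfbp1, Igfbp2, Igfbp5 and Igfbp7) and 1 (Igfbp6), beside 36.1 and 8.48%, and at E18.5 they were 1 (Igfbp3) and 1 (Igfbp6), beside 27.8 and 10.7%. With groups of 2, an exact permutation test of a single window cannot go below a two-sided p of 0.33.

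In the flanks no member passed either (adjusted p 0.224 to 0.993, with 1, 0 and 0 of 7 at an unadjusted p below 0.05), where 1.73, 1.62 and 0.72% of all genes were called. In the 2 kb beside CpG islands the count was also 0 at each stage. The mutants lay above without overlap in 3 members (Igfbp1, Igfbp2 and Igfbp3) at E10.5, in 3 (Igfbp2, Igfbp3 and Igfbp6) at E14.5 and in 1 (Igfbp7) at E18.5, where 38.7, 39.9 and 35.5% of all flanks did. They lay below in 0, in 1 (Igfbp5) and in 2 (Igfbp4 and Igfbp5), where 7.16, 5.02 and 5.17% did.

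Among the gene bodies, Igfbp7 passed in E10.5 embryos. Its 536 CpGs were at 73.5 and 73.3% in wild type and 75.9 and 76.4% in mutants, a difference of 2.74 points (adjusted p = 0.0344). At this stage 10.9% of all gene bodies were called, the median of all was 1.07 points, and the call did not hold without mutant replicate 1, without mutant replicate 2, with at least 10 reads per CpG or in 1 fit of the 12 libraries. Without wild-type replicate 2 Igfbp2 and Igfbp5 were called as well (3.38 and 6.35 points, where 19% of all bodies were), and Igfbp5 also without mutant replicate 1 (8.05 points, where 5.75% were). The Igfbp1 body in E14.5 liver was at 51.5 and 48.3% in wild type and 57.6 and 53.8% in mutants, a difference of 5.79 points (adjusted p = 0.377) that was called without wild-type replicate 1 (7.43 points, where 2.56% of all bodies were called). At E10.5 and E18.5 the Igfbp1 body differed by 0.35 and -2.26 points, with overlapping groups. Both mutants were above both wild types in 4, 5 and 3 of 7 bodies at E10.5, E14.5 and E18.5, where 51.8, 43.2 and 37.1% of all bodies were, and below in 0, where 5.02, 2.8 and 2.48% were. The median difference over the members was 2.65, 2.67 and 0.00496 points at E10.5, E14.5 and E18.5, beside 1.07, 1.59 and 1.9 over all genes. At E14.5 1.1% of all bodies were called, and the members at this stage stood as follows. None of the 7 was called by edgeR (2 at an unadjusted p below 0.05), but without wild-type replicate 2 Igfbp2, Igfbp3 and Igfbp7 were, at 4.46, 4.30 and 5.12 points, where 42.4% of all bodies were called. At E18.5 none of the 7 bodies was called (edgeR, 0 at an unadjusted p below 0.05, 0.367% of all genes called), and without mutant replicate 2 Igfbp2 and Igfbp7 were, at 6.01 and 6.44 points, where 58.1% of all bodies were called.

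Whether the genotype difference itself changed between tissues was tested in all 3 windows. No member passed (edgeR, 0 of 7 in each of 6 contrasts, adjusted p at least 0.999, 0 or 1 of 7 at an unadjusted p below 0.05). Of all genes, 0.00474% of flanks and 0.0262% of bodies passed between E10.5 and E14.5, and 0 in the other 4 contrasts.

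Tiles of 1 kb carried the view across the pair and 20 kb on either side. Of 49 tiles around Igfbp1 and Igfbp3, both mutants were above both wild types in 13 at E10.5, 19 at E14.5 and 12 at E18.5, where 26.1, 30.6 and 28.1% of all tiles in the genome were. They were below in 4, 3 and 3, where 11.1, 7.18 and 7.55% were. The median difference over the 49 tiles was 0.74, 1.99 and 1.91 points, with a range from -10.3 to 10.3 at E10.5, from -7.69 to 18.7 at E14.5 and from -12.8 to 15.2 at E18.5. The highest, in E14.5 liver, was at chr11:7107001-7108000 within Igfbp3. It held 7 CpGs at 48.7 and 66.8% in wild type and 74.0 and 79.0% in mutants. The 2 tiles over the Igfbp3 start stayed below 3% in every library. Of 80 tiles around Igfbp2 and Igfbp5, mutants were above in 26, 29 and 24 and below in 5 at each stage.

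**Figure D5:**
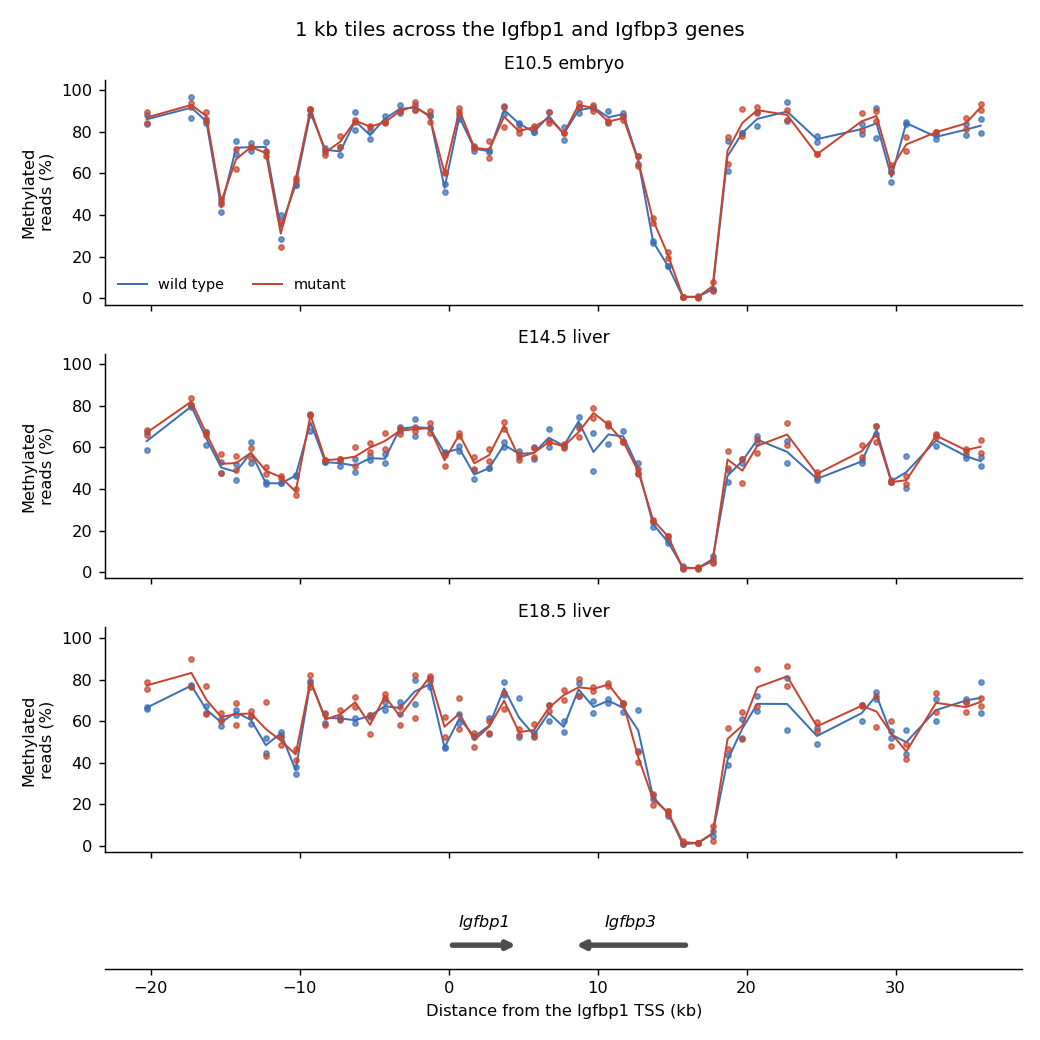
Percent of methylated reads in 1 kb tiles against distance from the Igfbp1 TSS for each tissue. Points are libraries and lines genotype means, with arrows for the genes at the bottom. The start of Igfbp3 is unmethylated in all 3 tissues.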

How the data were processed

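The authors aligned bisulphite reads to mm9 carrying FVB/NJ substitutions with Bismark and Bowtie2, removed PCR duplicates, and deposited counts of methylated and unmethylated reads per CpG beside a rounded percent, which was not used. For RNA-seq the authors deposited raw counts per gene from TopHat and HTSeq, without strand. H3K4me1 ChIP-seq was not analysed here.

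Gene positions came from GENCODE vM1 on NCBIM37 (mm9). Of the 20843076 deposited CpG positions, 96.2% fall on a reference CpG when read as counting from 0. RNA-seq was tested with edgeR 4.0.16 in R 4.3.3 (quasi-likelihood, TMM, default filter), with DESeq2 1.42.0 as the other tool. CPM uses library sizes scaled by TMM. Methylated and unmethylated counts per window with at least 3 CpGs were tested in edgeR with 1 intercept per library, without negative binomial dispersion. This quasi-binomial fit was chosen after a test on simulated data in which an estimated dispersion missed small-window changes. By then the counts of calls over all genes from that other fit had been seen, but no value of a member. P-values were adjusted by Benjamini-Hochberg over all genes, per window and tissue or contrast. CpG islands were runs of 200-bp windows of the reference with at least 50% GC and an observed to expected CpG ratio of at least 0.6.

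Named are the 7 members, Rlf, protein-coding genes within 500 kb of Igfbp1 and Igfbp3, the called genes and up to 3 more of the highest mean CPM of each list, and the 5 genes most correlated with Igfbp1. Some other list members are named with their blocked calls. The members and lists were chosen with earlier results of these data known. Same-numbered RNA-seq livers deviated together (r = 0.170, 0.229 and 0.449 over 13636 genes), so the fit with a block is quoted wherever it alters a call. Number 3, with the highest r, is also the female label. Male livers of different numbers gave r = 0.0797 and 0.0214. The study states that the RNA-seq livers are independent biological replicates and that the E14.5 bisulphite livers are littermates. At every stage p-values measure only the spread between these samples, which for the E14.5 bisulphite livers is the spread between littermates. Figures used matplotlib 3.10.9.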

Additional observations from a re-analysis of the deposited data

Results flagged for a closer look

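The genotype difference at the Igfbp6 TSS in E14.5 liver minus that in the E10.5 embryo was -7.25 points (unadjusted p = 0.0224, adjusted p = 1, edgeR interaction). It stands here because both mutants lay above both wild types in the embryos and below both in the E14.5 livers, which are different animals. The window was at 24.2 and 24.0% in wild-type and 27.4 and 30.5% in mutant embryos, and at 28.3 and 30.4% against 26.6 and 27.2% in E14.5 livers. The difference did not pass the adjustment over all genes. With 500 bp on either side of the TSS the genotype differences at E10.5 and E14.5 were 2.14 and -0.62 points, and the E14.5 groups overlapped.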

How the results depend on the processing

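In RNA-seq the number of members called was 2 with the replicate block in place of 1, and 0 to 1 with each liver left out. At the TSS in E14.5 liver it was 1 in place of 0 with the replicate block (Igfbp2, adjusted p = 0.00388) and 1 in 1 fit of the 12 libraries, though 0 in that fit with an estimated dispersion. In E10.5 gene bodies it was 1, and became 0 with at least 10 reads per CpG, 2 with the replicate block (Igfbp5 added, adjusted p = 0.0267) and 0 in 1 fit of the 12 libraries. The main fit called 10.9% of all bodies at this stage. The share with the block is not given here, so that count cannot be set beside it. With single libraries left out, it ran from 0 to 3 in E10.5 bodies, 0 to 3 in E14.5 bodies, 0 to 2 in E18.5 bodies and 0 to 1 at the E18.5 TSS. From E14.5 to E18.5 it ran from 0 to 2 at the TSS and 2 to 4 in the bodies. These fits assume that a lone library varies like the other groups. The Igfbp4 TSS difference from E10.5 to E14.5 turned to 0.0426 points with at least 10 reads. The causes were not tested, and some settings have fewer CpGs or libraries. Bisulphite replicate numbers did not pair the samples (r = 0.0943, 0.0392 and -0.0423 over 18363 gene bodies), and at E14.5 the number is also the sex label. Over all genes, RNA-seq calls were 197, against 532 without the filter, 460 with the replicate block, 256 by DESeq2 and 66 to 224 with a liver left out. TSS calls were 343, 147 and 169 at E10.5, E14.5 and E18.5, against 234, 0 and 92 with an estimated dispersion, a fit added after the data were seen, which left the number of members called at a stage or between tissues as it was. Groups of 2 and of 3 limit every comparison, and Igfbp6 RNA-seq values rest on 10 to 17 counts.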
